A study of Mus musculus with 9 samples.

Results

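The genes that the cell nucleus contributes to the respiratory chain and the ATP synthase were examined in the hippocampus of mice that received expanded CUG repeats. They were taken as every gene whose symbol begins with Nduf followed by a, b, c, s or v and a digit, is Sdha, Sdhb, Sdhc or Sdhd, or begins with Uqcr, with Cox and a digit from 4 to 8, or with Atp5. The rule took 84 of the 24411 genes listed for each mouse and used no measured value. By complex, 35 of them encode subunits of complex I, 4 of complex II, 8 of complex III, 18 of complex IV and 15 of complex V. The other 4, Atp5s, Atp5sl, Cox7a2l and Ndufa4l2, share the names but are not counted as subunits here. Testing required an average rlog value no lower than log2(10), and 82 of the 84 passed. Cox7b2 and Cox8c, isoforms known from testis, lay below it, with means of 1.82 and −2.14.

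All 9 mice were wild-type male C57BL/6J animals, given as 10 weeks old, that received an AAV9 vector in CA1 of both hippocampi, and RNA was taken from the hippocampus on day 10. CUG10 mice carried 10 CTG repeats behind Egfp, in its 3′-UTR, and CUG300 mice carried 300, so that the controls too were injected with virus and carried the reporter. The 3 groups were CUG10 with vehicle, CUG300 with vehicle and CUG300 with CWG-cPIP, a cyclic pyrrole-imidazole polyamide that binds CAG and CTG repeat DNA and was mixed with the virus, with 3 mice in each. The promoter of the vector is not named in the sources used here, the repeat was expressed from a virus and not from its natural gene, and the dissected tissue held infected and uninfected cells together. Expression is given as rlog, a regularized logarithm to base 2 that the authors deposited. Such values draw the differences of weakly expressed genes toward 0, so that differences may be understated, and a unit of 1 stands for a 2-fold difference before that shrinkage. CUG300 vehicle replicate 1 stood apart from the other mice in most of these genes, and the main results are also given without it.

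Oxidative phosphorylation takes place in the inner mitochondrial membrane. Complex I accepts electrons from NADH and complex II accepts them from succinate. Ubiquinone carries the electrons to complex III and cytochrome c carries them to complex IV, where oxygen is reduced. Complexes I, III and IV pump protons, and complex V, the ATP synthase, lets the protons back and makes ATP. Most subunits are encoded in the nucleus and imported, and a core set comes from mitochondrial DNA, which was not analysed here. Neurons draw most of their ATP from this route, because restoring ion gradients after synaptic and electrical activity is costly.

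The hippocampus of these mice expressed the genes at high levels. Levels between genes were compared per length, as rlog minus the log2 of the transcript length in kb, with lengths from GENCODE. On this scale complex IV had a median of 12.03, complex V of 11.86, complex III of 11.68, complex I of 10.91 and complex II of 10.77. Cox4i1, which encodes the largest nuclear subunit of complex IV, was highest of all at 13.73, and Atp5b, which encodes the catalytic β subunit of the ATP synthase, followed at 13.47. Before the correction for length, Atp5b had the highest mean of the genes, 14.40. In complex I the highest gene was Ndufb9 at 12.34 per kb, in complex III Uqcrq at 12.37, and in complex II Sdha, the flavoprotein that oxidizes succinate, at 11.19.

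Isoforms known from muscle, lung, testis or other tissues were far below their broadly expressed relatives. Per kb, Cox4i2, known from lung, was at 5.23 against 13.73 for Cox4i1. Cox6a2, known from heart and muscle, was at 6.59 against 13.25 for Cox6a1, and Cox8b, also known from muscle, was at 5.89 against 13.11 for Cox8a. Cox7a1 was at 6.35 against 11.60 for Cox7a2, Cox6b2 at 8.32 against 12.38 for Cox6b1, and Ndufa4l2, which hypoxia is known to induce, at 5.43 against 12.93 for Ndufa4. All 3 genes for the c subunit, Atp5g1, Atp5g2 and Atp5g3, which make the same mature protein with different import signals, were well expressed, at 11.75, 11.12 and 12.87. Many genes of this family have processed copies in the genome that resemble them closely, and how the authors' counting divided reads between a gene and such a copy cannot be seen in the deposited values.

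Genes of the chain are known to share promoter elements, above all sites for nuclear respiratory factor 1 (NRF1), GABP and YY1. RefSeq promoter windows of GRCm38.p6, from 250 bases before to 50 bases after each start, were at hand for 68 of the 82 genes tested and for 11713 of the genes tested overall. Letters were searched on both strands, and a gene counted when any of its windows held a match. The NRF1 motif, GCGCA followed by any base and GCGC, was in 17 of the 68 (25%) and in 10.4% of all genes. For the YY1 letters AAGATGGC the shares were 11 of 68 (16.2%) and 4.76%, with 7 of the 11 in complex I, and for the GABP letters CCGGAAGT 5 of 68 (7.35%) and 8.08%. The SP1 letters GGGCGG were in 27 of 68 (39.7%) and in 67.0% of all genes, and the TATA letters TATAAA in 6 of 68 (8.82%) and in 8.95%. The motifs NRF1 and SP1 can overlap in rows of G and C. Such a match is a description of letters and not a binding site. The 30-base windows shown here, on the strand of the gene, belong to genes named in the text, and capitals mark the 10 bases that match the NRF1 motif or its reverse complement.
Sdha (chr13:74350319-74350348, minus strand): cgtttacaggGCGCAGGCGCaccaccactc
Uqcrc1 (chr9:108936643-108936672, plus strand): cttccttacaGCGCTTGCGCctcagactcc
Cox6a1 (chr5:115349101-115349130, minus strand): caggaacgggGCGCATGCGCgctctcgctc
Ndufs5 (chr4:123718265-123718294, minus strand): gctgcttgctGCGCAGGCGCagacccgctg
Atp5c1 (chr2:10080430-10080459, minus strand): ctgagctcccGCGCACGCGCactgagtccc
Atp5g2 (chr15:102671070-102671099, minus strand): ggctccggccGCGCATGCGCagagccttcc
Atp5g3 (chr2:73911295-73911324, minus strand): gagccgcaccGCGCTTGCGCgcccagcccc
Distances are from the RefSeq starts of these windows, which can differ from the GENCODE gene bounds given with the values. In Sdha the match begins 98 bases before the start and in Atp5g2 42 bases before it. In Uqcrc1 it begins 5 bases after the start and in Atp5g3 12 bases after it. Genes with the motif stood on both sides of 0 in the comparison described next, from −0.28 for Sdha to 0.43 for Atp5g2.

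The comparison of CUG300 with CUG10 mice, both given vehicle, asks what the expanded repeat changed. None of the 82 genes was called (limma, adjusted p under 0.05 over all 14867 genes tested), against 10.7% of all genes, with 7.37% of all genes higher and 3.34% lower. The unadjusted p was under 0.05 in 4 of the 82, Ndufs1, Sdha and Atp5a1 with lower and Atp5g2 with higher means, against 30.5% of all genes. The median difference over the 82 genes was 0.02 on the log2 scale, against −0.01 over all genes, and 47 lay above 0 and 35 below. The medians by complex were 0.03 for I, −0.04 for II, 0.01 for III, 0.04 for IV and 0.02 for V. The median standard error of a difference was 0.21, and the 95% interval lay within ±0.5 for 29 of the genes and within ±1 for 81, so that on this shrunken scale a 2-fold difference lay outside the interval of each of them but Cox8b. In 3 of the 82 genes, Ndufs1, Sdha and Atp5a1, the groups did not overlap, all 3 with lower values in CUG300 mice, against 16.7% of all genes without overlap on the lower side and 18.2% on the higher side.

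CWG-cPIP-treated and vehicle-treated CUG300 mice were compared to ask what the compound changed. None of the 82 genes was called, as none of all genes was (0.00%). At an unadjusted p under 0.05 there was 1 of the 82, Cox8b with a lower mean, against 8.82% of all genes. The median difference was −0.16 against −0.00 over all genes, and 74 of the 82 genes had lower means with CWG-cPIP. These genes varied together between mice, so the 74 are not independent observations. The SD between mice of their median deviation, pooled within groups, was 0.28. Without CUG300 vehicle replicate 1 the median difference was 0.09, and with the trend of transcript length removed it was 0.00, with 39 of 81 genes below 0. The medians were −0.17, −0.14, −0.20, −0.18 and −0.16 for complexes I to V. Groups did not overlap in 2 genes, Sdha with higher values (4.97% of all genes) and Cox8b with lower values (3.50%), against 8.47% in either direction.

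Against CUG10 mice, CWG-cPIP-treated CUG300 mice had lower means in 70 of the 82 genes, with a median of −0.15 against 0.00 over all genes, and again none was called (0.00% of all genes). At an unadjusted p under 0.05 there were 2, Ndufs1 with a lower and Atp5g2 with a higher mean, against 13.4% of all genes. The medians were −0.16, −0.16, −0.22, −0.12 and −0.15 for complexes I to V. In 8 genes the groups did not overlap, all with lower values in the CWG-cPIP-treated mice, namely Ndufs1, Ndufv3, Sdha, Uqcrc1, Atp5a1, Atp5b, Atp5g3 and Atp5sl, against 12.4% of all genes on that side. An F test between the 3 groups called none of the 82 genes and none of all genes (0.00%), with 2 of the 82 and 23.5% of all genes at an unadjusted p under 0.05. The 3 comparisons share groups, so that their values are given side by side and not as independent results.

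**Figure D1:**
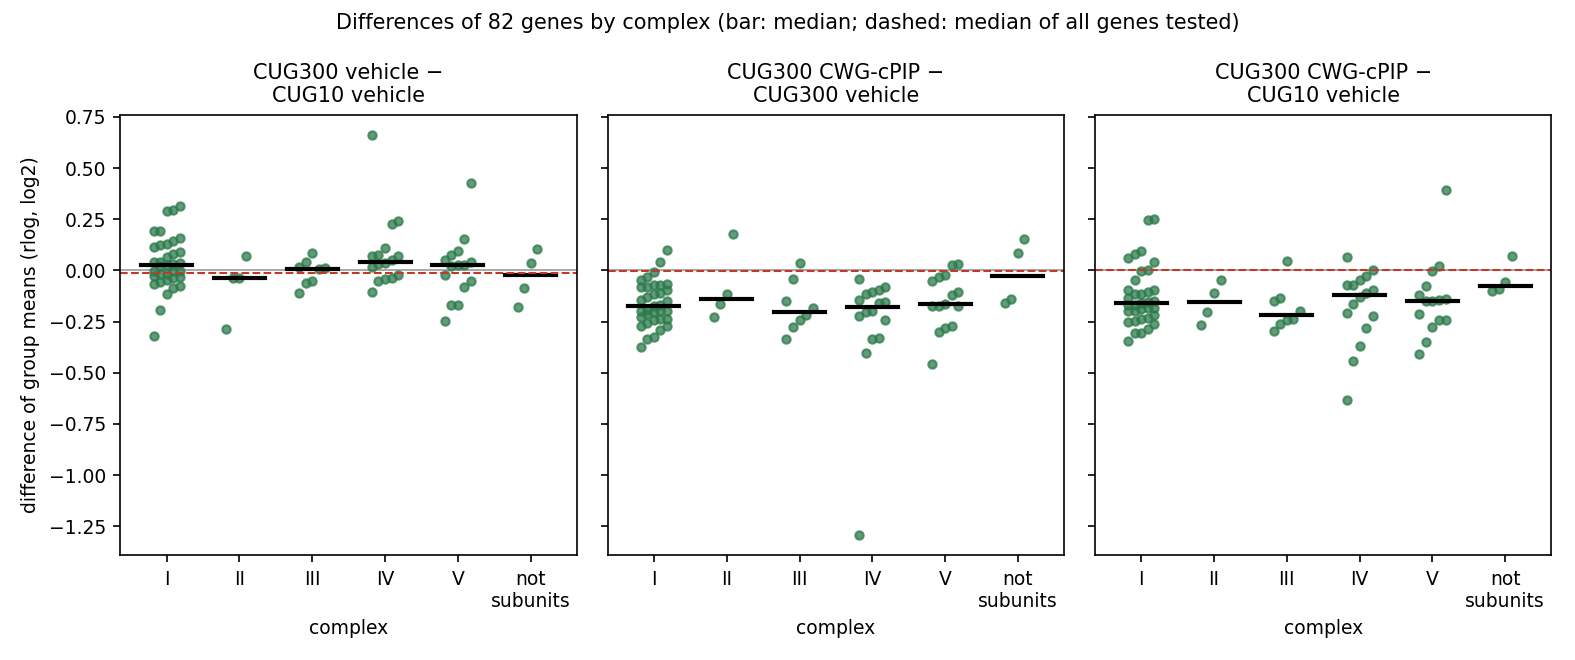
Each point is the difference of 2 group means of a gene (rlog, log2, vertical axis) by complex (horizontal axis), with a bar at the median of the complex and a dashed line at the median of all genes tested. Medians of the complexes lie between −0.04 and 0.04 in the comparison of CUG300 with CUG10 mice and between −0.22 and −0.12 in both comparisons of CWG-cPIP-treated mice, and no gene was called. Without CUG300 vehicle replicate 1, the median of all genes shown was 0.09 between CWG-cPIP and vehicle.

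In complex I, the 7 core genes tested had a median difference of −0.06 between CUG300 and CUG10 mice given vehicle, and the 28 supernumerary genes had 0.04. Ndufs1 (chr1:63143596-63176833, minus strand, GRCm38) encodes the large iron-sulfur subunit of the arm that accepts electrons. Its values were 11.62, 11.55 and 11.61 in the CUG10 group, 11.39, 11.27 and 11.16 in the vehicle-treated CUG300 group and 11.38, 11.46 and 11.28 with CWG-cPIP. All CUG10 mice lay above all CUG300 mice with or without the compound. The mean of CUG300 mice given vehicle was lower by 0.32 ± 0.09 (SE, n = 3 per group, 95% interval −0.52 to −0.12, limma adjusted p = 0.0528), which missed the threshold. Between the CUG300 groups the difference was 0.10 ± 0.09 (adjusted p = 0.581). With the values of each mouse centred on their median, 2 genes of the chain, Ndufs1 and Sdha, were called lower in CUG300 mice given vehicle, against 6.11% of all genes called lower.

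Further core genes of complex I had smaller differences than Ndufs1. Ndufv1, which encodes the subunit that binds NADH, differed by −0.19 ± 0.16 between CUG300 and CUG10 mice given vehicle (adjusted p = 0.454). Ndufs3 differed by 0.04, Ndufs7 by −0.06, Ndufs8 by −0.03 and Ndufv2 by 0.19, with adjusted p from 0.533 for Ndufv2 to 0.947 for Ndufs8. Among supernumerary genes the largest positive differences were in Ndufa12, 0.31 ± 0.17 (adjusted p = 0.234), and Ndufs5, 0.30 ± 0.22 (adjusted p = 0.383). Ndufs5 was 9.06, 8.67 and 8.16 in the CUG10 group, 8.80, 8.93 and 9.05 in the vehicle-treated CUG300 group and 8.91, 9.10 and 8.63 with CWG-cPIP. Its CUG10 mice held both the lowest and the second highest value of all mice. With CWG-cPIP against vehicle, the lowest differences in complex I were −0.37 ± 0.32 for Ndufa2 (adjusted p = 0.566) and −0.33 ± 0.28 for Ndufb7 (adjusted p = 0.562), and those of Ndufs1 and Ndufa10, at 0.10 and 0.04, were the only positive ones of 35. Against CUG10 mice the lowest were Ndufa5 at −0.34 and Ndufb7 at −0.31.

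Complex II is the only complex of the chain that is also an enzyme of the citrate cycle, and all of its subunits are encoded in the nucleus. Sdha (chr13:74322254-74350280, minus strand) was 12.87, 12.83 and 12.89 in the CUG10 group, 12.63, 12.61 and 12.49 in the vehicle-treated CUG300 group and 12.73, 12.82 and 12.70 with CWG-cPIP. The 3 groups were in full order without overlap, with CUG10 highest and CUG300 given vehicle lowest. The difference between CUG300 and CUG10 mice given vehicle was −0.28 ± 0.08 (95% interval −0.47 to −0.10, adjusted p = 0.0574), and CWG-cPIP-treated mice lay 0.18 ± 0.08 above vehicle-treated CUG300 mice (adjusted p = 0.483), so that neither passed the threshold. Its partner Sdhb, the iron-sulfur subunit, did not share this order. Sdhb was 11.51, 11.48 and 11.29 in the CUG10 group, 11.89, 10.91 and 11.36 in the vehicle-treated CUG300 group and 11.07, 10.97 and 11.44 with CWG-cPIP, and its groups overlapped widely. The membrane anchors Sdhc and Sdhd differed by −0.04 ± 0.18 and 0.07 ± 0.13 between CUG300 and CUG10 mice given vehicle (adjusted p = 0.908 and 0.742).

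In complex III, differences between CUG300 and CUG10 mice given vehicle ran from −0.11 to 0.08. Uqcrc1, a core protein on the matrix side, differed by −0.11 ± 0.12, Uqcrc2, its partner, by 0.01 ± 0.10 and Uqcrfs1, the Rieske iron-sulfur protein, by −0.05 ± 0.17 (adjusted p = 0.574, 0.96 and 0.868). Uqcrc2 had the narrowest spread of all 82 genes, 0.28 from its lowest to its highest mouse. The small subunits Uqcr10 and Uqcrq had the lowest differences with CWG-cPIP against vehicle, −0.34 ± 0.26 and −0.28 ± 0.24, but their 95% intervals of −0.92 to 0.25 and −0.83 to 0.27 spanned 0. In all 5 small subunits, and in Uqcrc1 and Uqcrfs1, the CWG-cPIP mean was below both other means. This rested on CUG300 vehicle replicate 1, as without it the CWG-cPIP mean was above that of vehicle-treated CUG300 mice in 7 of the 8 genes of the complex, with differences of 0.09 for Uqcrc1 and −0.01 for Uqcr10.

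The 11 broadly expressed genes of complex IV had a median difference of 0.03 between CUG300 and CUG10 mice given vehicle and of −0.16 with CWG-cPIP against vehicle. Cox4i1 (chr8:120668222-120674207, plus strand) was 13.51, 13.39 and 13.26 in the CUG10 group, 13.95, 12.92 and 13.22 in the vehicle-treated CUG300 group and 13.12, 12.99 and 13.39 with CWG-cPIP. CUG300 mice given vehicle held both its highest and its lowest value, and the mean differed from that of CUG10 mice by −0.02 ± 0.24 (95% interval −0.56 to 0.51). Cox5a and Cox5b, which sit beside the catalytic core, differed by 0.08 ± 0.19 and 0.02 ± 0.17. Cox8a differed by 0.03 ± 0.16, Cox7c by 0.22 ± 0.23 and Ndufa4, now counted with complex IV, by −0.05 ± 0.23, with adjusted p of 0.545 or more.

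Cox8b (chr7:140898945-140900446, minus strand) had the widest spread of all 82 genes and the lowest level of those tested, 4.42. It was 3.77, 4.54 and 4.92 in the CUG10 group, 6.32, 3.90 and 4.995 in the vehicle-treated CUG300 group and 3.76, 3.89 and 3.68 with CWG-cPIP. All 3 CWG-cPIP-treated mice lay below the lowest vehicle-treated CUG300 mouse, though barely, and close to each other. The difference between CWG-cPIP and vehicle was −1.29 ± 0.52 (95% interval −2.48 to −0.11, adjusted p = 0.483), and without CUG300 vehicle replicate 1 it was −0.67. The 13 choroid plexus markers, of which Ttr is the best known, differed between the mice in a similar order. Their median deviation from each gene's mean was −1.28, 0.12 and 1.39 in the CUG10 group, 1.54, 0.35 and 1.02 in the vehicle-treated CUG300 group and −1.18, −1.01 and −1.14 with CWG-cPIP, all 13 were detected, and their summed linear level was 1677 to 31576, 17295 to 65244 and 1712 to 2151. With the mean of these markers as a covariate the difference of Cox8b was 0.23 (adjusted p = 0.998). The deviations of the markers did not overlap between the CWG-cPIP and the vehicle-treated CUG300 mice, so this fit cannot separate the markers from the group. Between CUG300 and CUG10 mice given vehicle, the same fit called 1 of all genes, against 1592 without the covariate. Whether choroid plexus tissue had a part in the values of Cox8b was not tested. The other tissue-restricted forms, Cox4i2, Cox6a2, Cox6b2 and Cox7a1, differed by 0.04, 0.11, −0.11 and 0.24 between CUG300 and CUG10 mice given vehicle.

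The ATP synthase has a catalytic F1 head, built from the α and β subunits, and a rotor of c subunits in the membrane. Atp5a1, which encodes the α subunit, was 14.19, 14.20 and 14.27 in the CUG10 group, 14.10, 13.86 and 13.96 in the vehicle-treated CUG300 group and 13.98, 13.98 and 14.06 with CWG-cPIP. All CUG10 mice lay above the other 6. The difference between CUG300 and CUG10 mice given vehicle was −0.25 ± 0.10 (95% interval −0.47 to −0.02, adjusted p = 0.13). Atp5b (chr10:128083273-128090391, plus strand) was 14.58, 14.48 and 14.46 in the CUG10 group, 14.52, 14.22 and 14.28 in the vehicle-treated CUG300 group and 14.32, 14.35 and 14.42 with CWG-cPIP. It differed by −0.17 ± 0.11 (adjusted p = 0.334), with 1 vehicle-treated CUG300 mouse inside the range of CUG10 mice. Atp5c1, which encodes the rotating γ subunit, differed by 0.02 ± 0.12 (adjusted p = 0.932).

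The genes for the c subunit did not share a direction. Atp5g2 (chr15:102662864-102672352, minus strand) was 9.98, 9.57 and 9.44 in the CUG10 group, 10.09, 10.28 and 9.91 in the vehicle-treated CUG300 group and 10.16, 10.20 and 9.82 with CWG-cPIP. CUG10 replicate 1 lay among the CUG300 mice and the other two below them. Its difference between CUG300 and CUG10 mice given vehicle, 0.43 ± 0.17 (95% interval 0.04 to 0.81, adjusted p = 0.127), was the largest in the chain after that of Cox8b. Atp5g3 differed by −0.17 ± 0.20 (adjusted p = 0.602) and Atp5g1 by 0.03 ± 0.18 (adjusted p = 0.937). Atp5e, which encodes the small ε subunit, was 11.30, 11.36 and 11.16 in the CUG10 group, 12.25, 10.56 and 11.16 in the vehicle-treated CUG300 group and 10.76, 10.53 and 11.30 with CWG-cPIP. Vehicle-treated CUG300 mice held its highest value and its second lowest, and the 95% interval around their difference of 0.05 from CUG10 mice ran from −0.79 to 0.89.

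**Figure D2:**
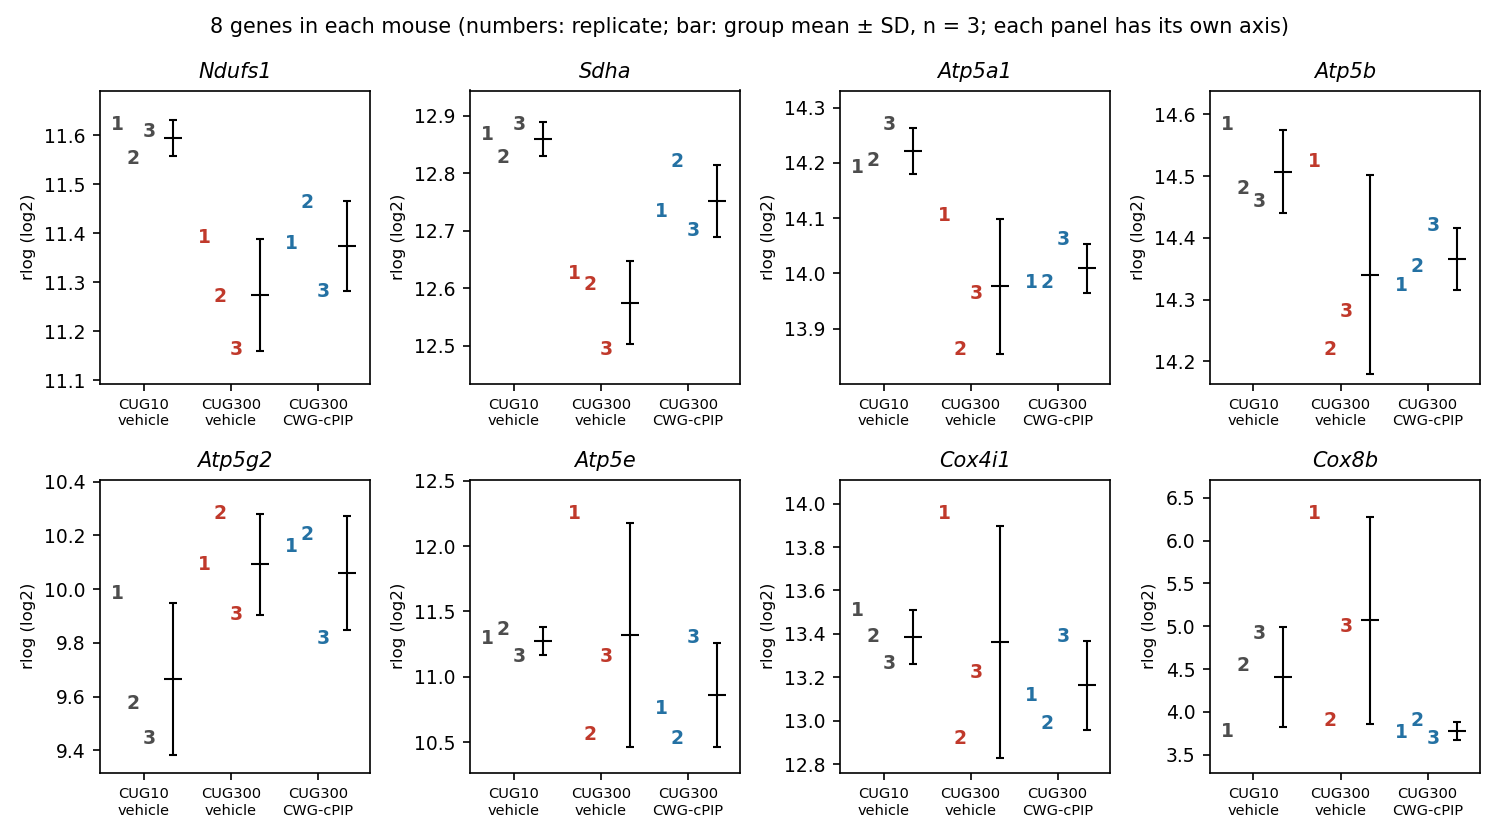
The rlog value (log2, vertical axis, separate in each panel) of 8 genes is shown in each mouse, drawn as its replicate number, by group (horizontal axis), with the group mean ± SD (n = 3). Ndufs1, Sdha and Atp5a1 lie lower in all 3 CUG300 mice given vehicle than in all CUG10 mice, whereas Cox4i1 and Atp5e have their highest value in replicate 1 of CUG300 mice given vehicle and low values in replicate 2.

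The genes varied together between mice of 1 group. The within-group SD over 3 mice had a median of 0.14 in the CUG10 group, 0.46 in the vehicle-treated CUG300 group and 0.16 with CWG-cPIP, against 0.10, 0.22 and 0.14 over all genes. CUG300 vehicle replicate 1 was the highest of the 9 mice in 71 of the 82 genes (86.6%), against 21.0% of all genes. CUG300 vehicle replicate 2 was the lowest in 41 of the 82, against 9.82% of all genes. By complex, replicate 1 was highest in 32 of 35 genes of I, 3 of 4 of II, 7 of 8 of III, 15 of 16 of IV and 12 of 15 of V. The median deviation of the 82 genes from their own means was 0.17, 0.07 and −0.07 in the CUG10 group, 0.58, −0.28 and −0.10 in the vehicle-treated CUG300 group and −0.14, −0.23 and 0.06 with CWG-cPIP. Medians over all genes were within 0.01 of 0 in every mouse. Without CUG300 vehicle replicate 1 the median difference between CUG300 and CUG10 mice given vehicle was −0.25 instead of 0.02, that between CWG-cPIP and vehicle was 0.09 instead of −0.16, and 5 genes were called, all lower in CUG300 mice, where 13.8% of all genes were called and 5.35% were called lower. These were Atp5g3 (−0.43, adjusted p = 0.045), Atp5sl (−0.29, adjusted p = 0.0482), Ndufs1 (−0.38, adjusted p = 0.0334), Sdha (−0.31, adjusted p = 0.0449) and Ndufv3, an accessory subunit of complex I. The mouse left out was singled out on the values of these same genes. As it was the highest in most of them, leaving it out lowers the mean of its group, so the direction of these shifts follows from the choice.

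**Figure D3:**
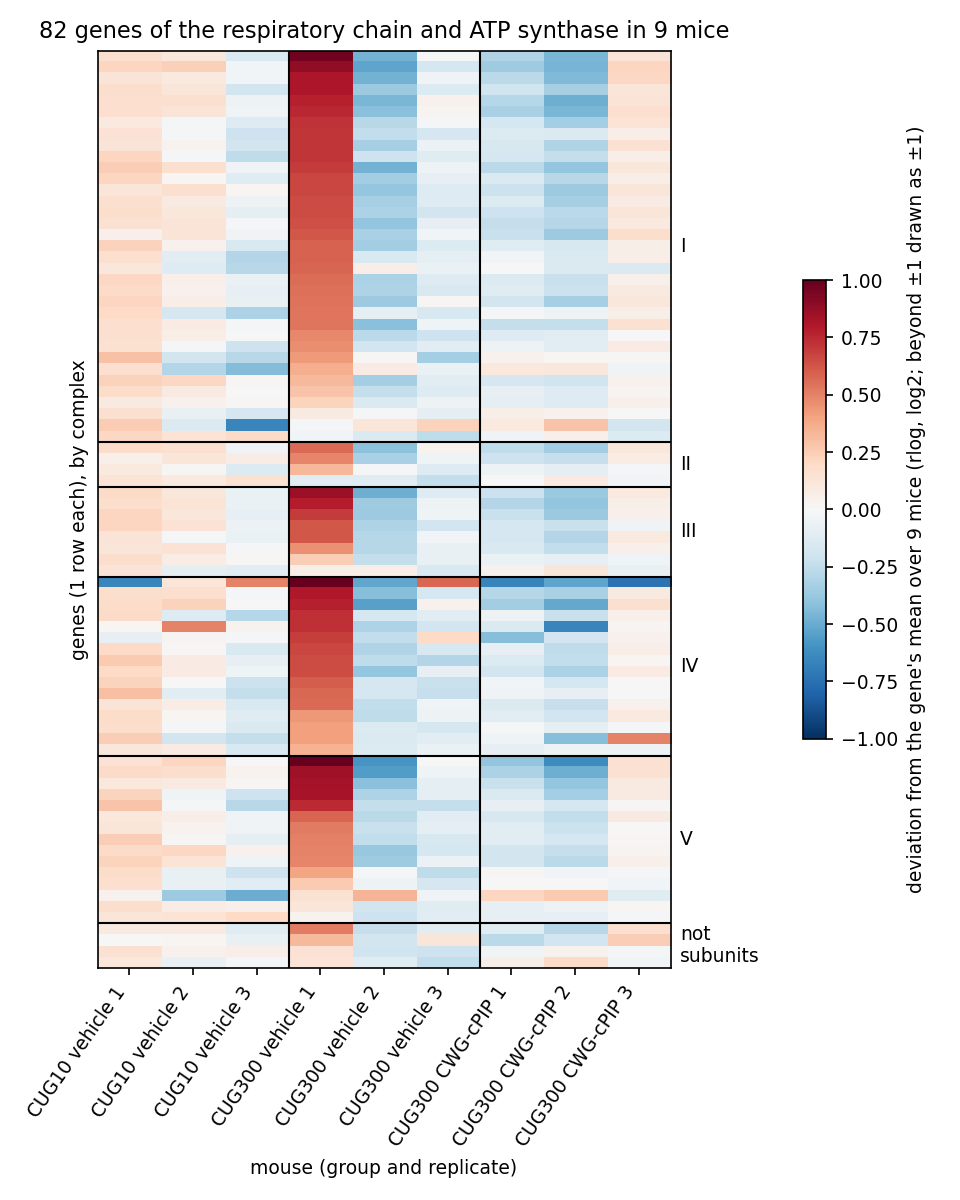
Rows are the 82 genes tested, grouped by complex, columns are the 9 mice, and colour is the deviation from the gene's mean over the 9 mice (log2, red above and blue below, saturated at ±1). The column of CUG300 vehicle replicate 1 is red in nearly all genes of every complex, with a median of 0.58, and replicate 2 of that group is blue, with a median of −0.28.

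The genes that did not follow this pattern were mostly long for genes of the chain, though Ndufs5, Cox6a2 and Atp5g2 were short, at 599, 680 and 441 nt. The 71 genes highest in CUG300 vehicle replicate 1 had a median transcript length of 709 nt, and the other 11 (Ndufa10, Ndufs1, Ndufs5, Sdha, Uqcrc2, Cox6a2, Atp5a1, Atp5b, Atp5g2, Atp5s and Atp5sl) had 1916 nt. The chain as a whole is built from short transcripts, with a median of 732 nt over the 81 tested genes that have a length, against 2847 nt over all genes. In CUG300 vehicle replicate 1, deviations went down with length over all genes too, from a median of 0.56 for transcripts up to 600 nt to −0.25 for those above 4000 nt. The genes of the chain went from 0.72 in the first class, with 26 genes, to 0.63, 0.50 and 0.26 in the next 3 classes. These reach to 900, 1500 and 2500 nt and hold 22, 18 and 12 genes. From 2500 to 4000 nt the chain had 3 genes, with a median of −0.02, and above 4000 nt it had none. All genes had medians of 0.44, 0.30, 0.12 and −0.04 in the classes to 900, 1500, 2500 and 4000 nt. In CUG300 CWG-cPIP replicate 2 the slope over all genes was opposite, from −0.25 to 0.13. Genes of cytosolic ribosomal proteins, another set of short transcripts with a median of 751 nt, had their highest value in CUG300 vehicle replicate 1 in 73 of 76 cases. Their median deviations were −0.02, −0.16 and −0.37 in the CUG10 group, 0.67, −0.11 and 0.25 in the vehicle-treated CUG300 group and −0.14, −0.35 and 0.26 with CWG-cPIP. The 2 sets thus stood apart in CUG300 vehicle replicate 3, at −0.10 for the chain and 0.25 for the ribosomal proteins.

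**Figure D4:**
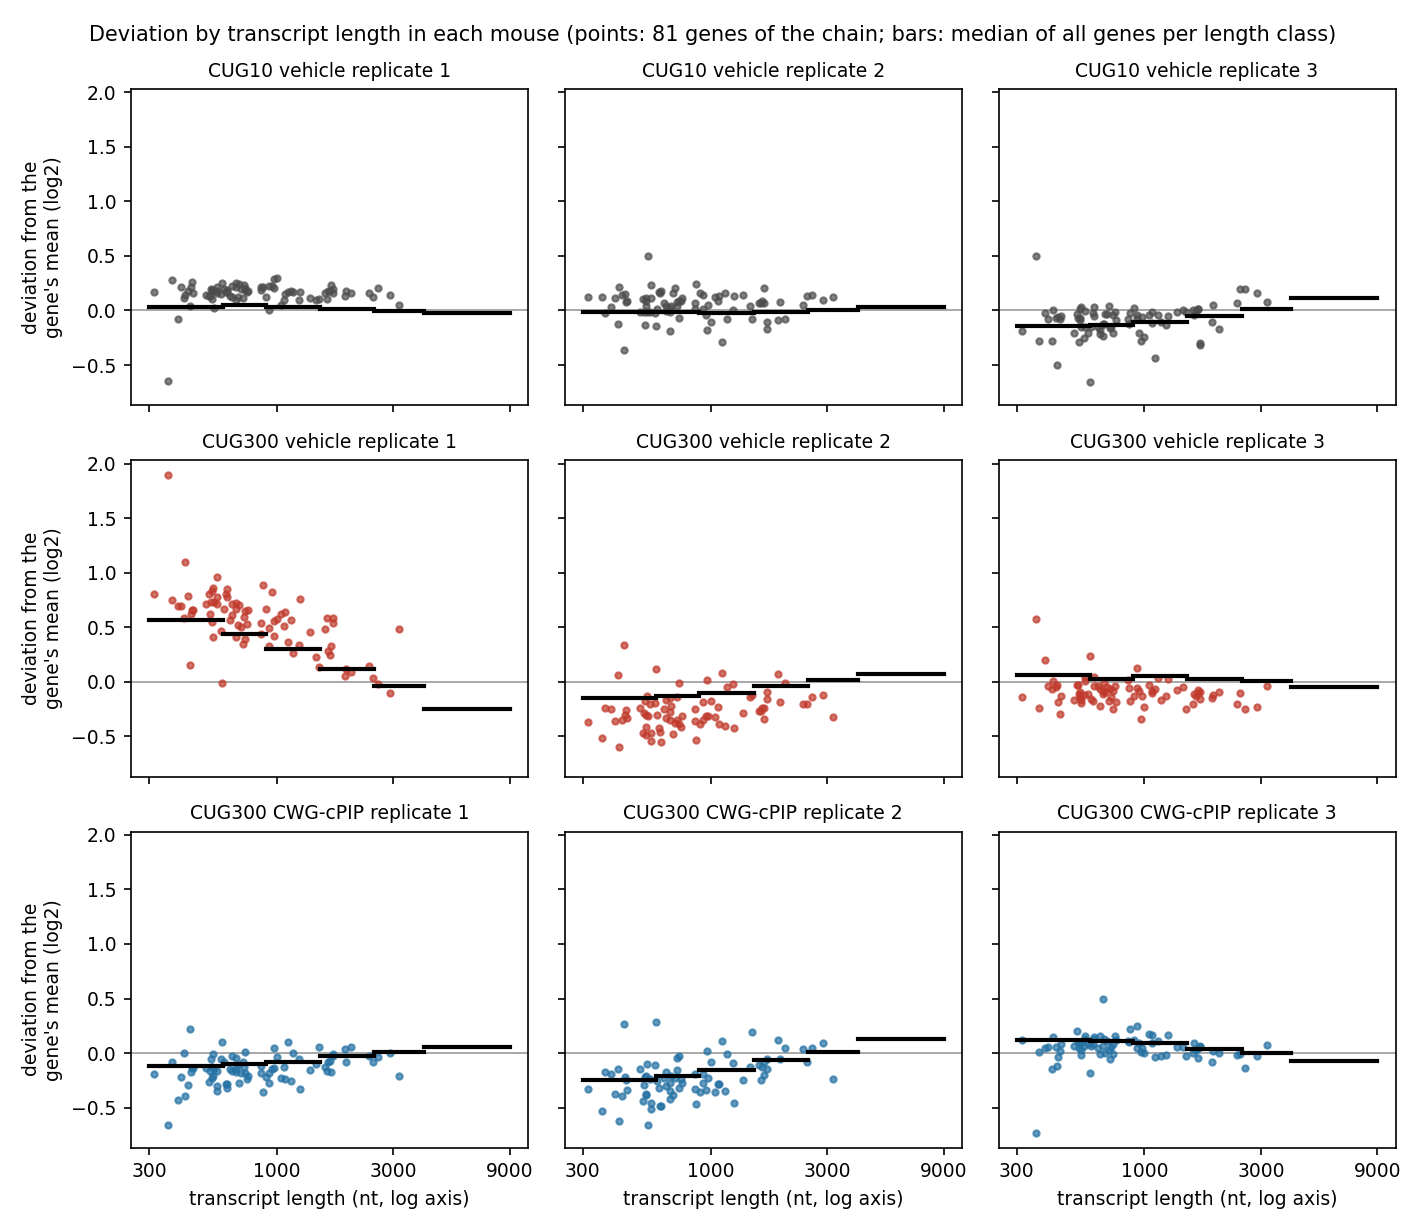
In each panel, 1 per mouse, points are the 81 genes with their transcript length (nt, log axis) and their deviation from the gene's mean (log2), and black bars are medians of all tested genes in 6 length classes. In CUG300 vehicle replicate 1 the bars step from 0.56 in the shortest class down to −0.25 above 4000 nt, where the chain has no gene. Medians of the points go from 0.72 in the shortest class to −0.02 at 2500 to 4000 nt, where the bar is at −0.04. The bars of CUG10 vehicle replicate 1 stay near 0.

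Removing the smooth trend with length from each mouse changed what the comparison with CUG10 mice gave. After it the median difference between CUG300 and CUG10 mice given vehicle was −0.12 over the 81 genes, with 70 of them below 0, against −0.00 over all genes. Medians were −0.13, −0.09, −0.15, −0.11 and −0.12 for complexes I to V. Ndufs1 (−0.33, adjusted p = 0.0307), Sdha (−0.27, adjusted p = 0.0368) and Atp5g3 (−0.32, adjusted p = 0.0411) were then called lower, 3 of 81, against 6.01% of all genes called lower and 16.2% called in either direction. The median difference between CWG-cPIP and vehicle was 0.00, with 39 of 81 below 0, and that between CWG-cPIP-treated and CUG10 mice was −0.12. Part of a difference between groups may be removed with the trend. The per-mouse medians after removal were 0.13, 0.09 and 0.06 in the CUG10 group, 0.15, −0.16 and −0.13 in the vehicle-treated CUG300 group and −0.04, −0.03 and −0.02 with CWG-cPIP. CUG300 vehicle replicate 1 was thus still the highest mouse, in 39 of 81 genes, and the other two of its group were the lowest. For cytosolic ribosomal proteins the median difference between CUG300 and CUG10 mice given vehicle was 0.45 before and 0.32 after removal.

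**Figure D5:**
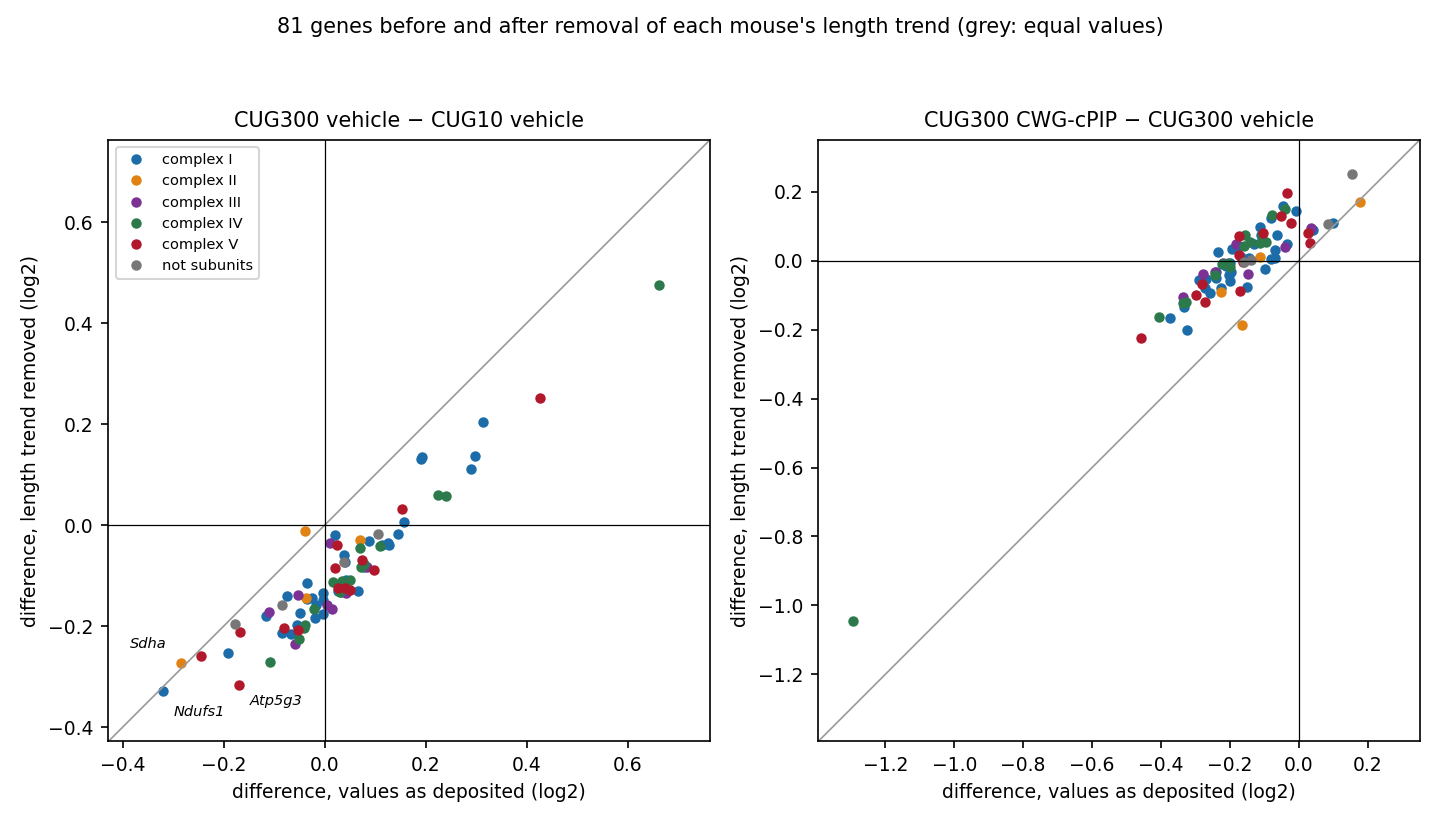
For 81 genes, coloured by complex, the difference between group means (log2) from values as deposited (horizontal axis) is plotted against that after removal of each mouse's trend with transcript length (vertical axis), and the grey line marks equal values. Most points in the left panel move below the line and below 0, to a median of −0.12, and in the right panel they move up to a median of 0.00.

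The 4 genes that share the names without being subunits had differences of the same order. Cox7a2l, which encodes a factor that joins complexes III and IV, differed by 0.04 ± 0.19 between CUG300 and CUG10 mice given vehicle, Ndufa4l2 by 0.11 ± 0.17, Atp5s by −0.08 ± 0.13 and Atp5sl by −0.18 ± 0.11 (adjusted p = 0.915, 0.711, 0.696 and 0.314).

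Other genes of the pathway were read from lists. Ndufab1, the acyl carrier protein of complex I, differed by 0.07 between CUG300 and CUG10 mice given vehicle. Of 44 assembly factors tested none was called, with a median of 0.01, and Ndufaf1 and Ndufaf2 differed by 0.11 and 0.08. Atpaf1 differed by −0.39 (adjusted p = 0.055). With the length trend removed it was the 1 factor called lower (−0.42, adjusted p = 0.0343), against 6.01% of all genes. None of 15 electron carriers and feeders was called (median −0.04), where Cycs, which encodes cytochrome c, differed by 0.29 ± 0.15 and Etfa by 0.13 ± 0.13 (adjusted p = 0.221 and 0.52). Of 18 genes of the citrate cycle and pyruvate dehydrogenase, 13 had lower means in CUG300 mice, with a median of −0.15, and none was called. An unadjusted p under 0.05 was found in 5 of them, all with lower means. Over all genes this share was 30.5% in either direction, with 2106 of 14867 genes on the lower side. With the length trend removed 4 of the 18 were called lower, against 6.01% of all genes. Cs, which encodes citrate synthase, differed by −0.25 ± 0.14 (adjusted p = 0.247). Among 15 regulators of transcription and biogenesis (median 0.10, none called), Ppargc1a, a coactivator of mitochondrial genes, differed by −0.36 ± 0.15 and its relative Ppargc1b by −0.21 ± 0.12 (adjusted p = 0.15 and 0.27). Nrf1, named here because it is the factor of the motif shown above, differed by 0.26 ± 0.13 (adjusted p = 0.226). The genes of GABP and YY1, whose letters were counted too, also had higher means. Gabpa, Gabpb1 and Yy1 differed by 0.27, 0.60 and 0.20 (adjusted p = 0.113, 0.0643 and 0.23). The list as a whole was mixed, with higher means in 9 of the 15 regulators and lower means in 6. With the length trend removed 1 of the 15 regulators, Gabpb1, was called higher (0.59, adjusted p = 0.0483), against 10.2% of all genes called higher.

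Of 15 carriers, inhibitors and stabilizers of the chain (median −0.01), 2 were called, against 10.7% of all genes. Ucp2, which encodes an uncoupling protein that immune cells also express, was 8.77, 9.13 and 9.38 in the CUG10 group, 9.97, 10.24 and 10.75 in the vehicle-treated CUG300 group and 9.80, 9.42 and 10.28 with CWG-cPIP. All CUG300 mice lay above all CUG10 mice, and it rose by 1.23 ± 0.26 with vehicle (adjusted p = 0.0276). Opa1, which encodes a GTPase that shapes the inner membrane, was 11.21, 11.29 and 11.41 in the CUG10 group, 10.90, 11.02 and 10.82 in the vehicle-treated CUG300 group and 11.09, 11.24 and 10.95 with CWG-cPIP, and it fell by 0.39 ± 0.11 on the log2 scale (adjusted p = 0.0467). With the length trend removed Opa1 was no longer called (−0.25, adjusted p = 0.0699), whereas Ucp2 was (adjusted p = 0.0203). For Opa1, vehicle-treated CUG300 mice lay below all CUG10 mice, and 1 CWG-cPIP-treated mouse lay within the range of CUG10 mice. Slc25a4, the main ADP and ATP carrier of excitable cells, differed by −0.12 ± 0.16 and Slc25a3, the phosphate carrier, by −0.01 ± 0.15 (adjusted p = 0.634 and 0.962). Among ribosomal proteins, 3 of 76 cytosolic and 1 of 77 mitochondrial genes were called, all higher, against 7.37% of all genes, with medians of 0.45 and 0.16. With the length trend removed these counts were 17 and 2, against 10.2% of all genes called higher.

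All 12 hippocampal neuron markers were detected, among them Prox1 and Fibcd1. The 13 choroid plexus markers and the 9 thalamus and diencephalon markers passed the same minimum, so detection does not tell the hippocampus from neighbouring tissue. Over the 12 neuron markers the median difference between CUG300 and CUG10 mice given vehicle was −0.23, and 10 were negative. Of these 12, only Fibcd1 was called lower (limma adjusted p = 0.0241), against 3.34% of all genes. With the length trend removed 3 were called lower, against 6.01% of all genes. The summed linear level ranged from 90602 to 93117 in the CUG10 group, 57722 to 87070 in the vehicle-treated CUG300 group and 74763 to 91227 with CWG-cPIP. All 7 monocyte and macrophage markers had higher means and 6 were called, with a median of 2.82 and summed levels of 668 to 1591, 5429 to 8722 and 1161 to 7495. Markers of T and NK cells were called higher in 4 of 6 cases, and those of microglia and of astrocytes in 2 of 7 and 2 of 6, against 7.37% of all genes. The last 2 lists did not move as a whole. Lower means were found in 2 of the microglia and 3 of the astrocyte markers, among them Slc1a2 (−0.85, adjusted p = 0.128) and Gja1 (−0.54, adjusted p = 0.181). None was called of 6 oligodendrocyte markers (median −0.59) or of 7 markers of parvalbumin interneurons (median −0.68, all 7 negative). The 9 thalamus and diencephalon markers, which lie outside the hippocampus, had a median difference of 0.29 between CUG300 and CUG10 mice given vehicle and of 0.86 between CWG-cPIP-treated and CUG10 mice, with all 9 positive in the latter and none called in either. In bulk tissue, fewer cells of a type and less RNA per cell cannot be told apart, and the part that shifts in cell types had in the values of the chain was not tested.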

How the data were processed

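RNA of the hippocampus of 9 mice was sequenced as paired-end reads from strand-specific libraries. Per the labels and the submitters' processing notes, reads were trimmed with Trim Galore 0.6.6, aligned with STAR 2.7.9a to GRCm38 (mm10) and quantified with RSEM 1.3.3. The authors deposited regularized logarithm values from DESeq2 1.36.0, on the log2 scale, for 24411 genes, of which 5175 hold 1 value in all mice. The gene annotation, the strand setting and the options of that transformation are not given in the sources used here. Counts were not analysed, so depth is unknown and no counting intervals are given. Mitochondrially encoded subunits were not analysed here.

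Genes whose average reached log2(10) were tested with limma 3.58.1 in R 4.3.3, with a mean per group, a variance pooled over the 9 mice and a trend of variance with level (prior degrees of freedom 3.03). P-values were two-sided and adjusted by Benjamini-Hochberg over all 14867 genes, with a threshold of 0.05 for a call. Intervals are 95% intervals of limma. The labels do not name litters or batches, so p-values measure the spread between these mice. The alternatives tried were quantile scaling, centring on the median, a higher minimum of log2(100) or none, limma without trend or with robust variances, an adjusted p under 0.01, a difference above 0.5, fits of only the groups compared, a replicate block, choroid plexus markers as a covariate, removal of each mouse's lowess trend (span 0.3) with transcript length, and leaving out each mouse. The fit was tested on simulated data.

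Coordinates and transcript lengths came from the GENCODE annotation M21 of GRCm38, with 23350 symbols matched directly and 668 by an older symbol, and promoter sequences from RefSeq (GRCm38.p6). Named were core subunits, paralogous isoforms, genes under the minimum or not subunits, those with the highest level and with the largest and smallest differences in each complex, called genes, and the first 2 of each further list. Nrf1, Gabpa, Gabpb1, Yy1, Atpaf1, Slc1a2, Gja1 and the promoter windows shown were chosen after their values were seen. The genes and lists were chosen with earlier results of these data known. Single values of some genes of these lists are not reported here.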

Additional observations from a re-analysis of the deposited data

How the results depend on the processing

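Between CUG300 and CUG10 mice given vehicle, the count of genes of the chain called went from 0 to 2 with median centering (Ndufs1, adjusted p = 0.0401, and Sdha, adjusted p = 0.04) and to 3 with the trend of transcript length removed. Leaving out 1 mouse gave 0 to 5, with 5 without CUG300 vehicle replicate 1 and 1, Ndufs1, without CUG300 CWG-cPIP replicate 3. All of these calls were lower in CUG300 mice, and 12.9%, 16.2%, 13.8% and 15.5% of all genes were called in these 4 fits. The remaining alternatives called none, among them the fit with a replicate block (0 called). Several of these called hardly any gene at all. Of all genes, 0 were called at an adjusted p under 0.01 and without CUG10 replicate 1, CUG10 replicate 3 or CUG300 vehicle replicate 3. Without CUG10 replicate 2 there were 2, and with the choroid plexus covariate 1, so that these fits say little about the chain. For mice of the same replicate number, correlations over genes of the deviations from the group means lay between −0.499 and 0.413. Such deviations sum to 0 over the 3 mice of a group, so these correlations cannot decide whether the numbers pair the mice. The block changed no call among the genes of the chain, and of all genes it called 1512 instead of 1592. In the other comparisons and in the F test none of the genes was called under any alternative. Many of these alternatives called 0 of all genes. The most called of all genes were 3 between CWG-cPIP and vehicle, 567 between CWG-cPIP-treated and CUG10 mice and 1483 in the F test.

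The median difference over the genes between CUG300 and CUG10 mice given vehicle, 0.02, was −0.05 with median centering, −0.04 with choroid plexus markers as a covariate and −0.12 with the length trend removed, and ran from −0.25 to 0.20 when 1 mouse was left out. Between CWG-cPIP and vehicle it ran from −0.34 to 0.09, and between CWG-cPIP-treated and CUG10 mice from −0.23 to −0.10, when 1 mouse was left out. Without CUG300 vehicle replicate 1, the highest mouse in most of the genes, the first of these medians was −0.25 and the second 0.09, so that both changed sign. Over all alternatives the adjusted p ran from 0.0307 to 0.17 for Ndufs1, from 0.0368 to 0.191 for Sdha and from 0.0411 to 0.969 for Atp5g3. Without counts the depth behind each value is unknown, and reads shared with near-identical copies cannot be traced.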
